A study of Arabidopsis thaliana with 5 samples.

Results

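The nuclear photosynthesis genes described here are 46 genes of *Arabidopsis thaliana*: 6 *LHCA* genes for the antenna of photosystem I, 14 *LHCB* genes for the antenna of photosystem II, 4 *RBCS* genes for the small subunit of Rubisco, 12 *PSA* genes for subunits of photosystem I and 10 *PSB* genes for photosystem II proteins. They were chosen by name, through their gene identifiers, and not by their values. All 46 are among the 33602 genes of a table of total expression, and all 46 had an RPKM (read number divided by gene length in kilobases and by library depth) of 1 or more in 2 or more of the 5 libraries, the limit for a test. The libraries were made from poly(A) RNA of endosperm nuclei collected 4 days after crossing (4 DAP) and purified by INTACT, which pulls down nuclei of cells that make a biotin-tagged nuclear envelope protein. Both parts of the tag, *PHE1::NTF* and *PHE1::BirA*, are driven by the promoter of *PHE1*, an endosperm gene, in a Col line named INT. In Col × Ler (mother named first; 2 libraries, replicates 2 and 3), the mother was INT in the male-sterile *dde2* background in Col and the pollen came from wild-type Ler. In Ler × Col (3 libraries, replicates 1, 2 and 3), the mother was the male-sterile *pistillata* mutant *pi-1* in Ler and the pollen came from INT. The tag therefore came from the mother in Col × Ler, and also marks her own tissues wherever the promoter is active there, whereas in Ler × Col it came from the father. All 5 libraries are F1 endosperm with 1 parent of each accession, and the values add the alleles of both parents together. Endosperm holds 2 maternal genomes to 1 paternal genome, so Col × Ler has 2 Col genomes to 1 of Ler, and Ler × Col the reverse. The dose of each accession's genome cannot be told apart from the cross.

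Light is captured by chlorophyll bound to the *LHCA* and *LHCB* proteins and passed to photosystems I and II, whose electron flow yields the NADPH and ATP that Rubisco and the Calvin cycle use to fix carbon. These proteins are encoded in the nucleus and imported into the plastid, where they join subunits encoded by the plastid genome, and their genes are classic targets of light and plastid signals. Green plastids are found in the silique wall, the seed coat, the embryo and, for a time, the endosperm of a young *Arabidopsis* seed, so their transcripts mark no single seed tissue. In bulk RNA, fewer cells of a type and less RNA per cell cannot be told apart.

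The libraries differed in ways that the cross did not account for, and these differences bear on every value below. Their depth, recovered from the steps between low RPKM values of tRNA genes, was about 12.5 M and 26.6 M reads in Col × Ler and between 20.3 M and 28.5 M reads (M for 1e6) in Ler × Col. Replicate 2 of each cross had many more genes listed at 0, 12393 in Col × Ler and 10800 in Ler × Col, than the other libraries, with 647 to 3293. Their 10 highest genes took 15.2 and 15.4% of the summed RPKM, against 4.15 to 7.25% in the others. Ler × Col replicate 1, from the first replicates, for which the study collected a larger mass of siliques, stood furthest from the others (Pearson's r of log2(RPKM + 1) across genes of 0.635 to 0.723, against 0.829 to 0.950 among the other 4). The study set the first replicates of both crosses aside for contamination, and its threshold for reads that tell the alleles apart names 2 replicates of each cross. It nevertheless counts 3 Ler × Col libraries among those it merged, so whether this library is one of those set aside is not clear. This library is used here, and values without it are given. Of 10 endosperm markers, the median stood at 12.0 and 26.3 RPKM in Col × Ler, against 17.2, 7.0 and 17.3 RPKM in Ler × Col. *ZOU*, an endosperm transcription factor gene, ranged between 189.9 and 777 RPKM and *PHE1* between 29.7 and 51.0 RPKM, whereas *AGL36* was listed at 0 in both replicate 2 libraries and *IKU2* in Ler × Col replicate 2. The highest markers by mean of the seed coat, *MUM4* (38.4 to 119.8 RPKM), and of the embryo, *WOX8* (23.6 to 119 RPKM), were above *PHE1* in most libraries. Apart from *TT1* and *LEC1*, the other seed coat and embryo markers had means of at most 16.5 RPKM, against 38.7 RPKM for *PHE1*. The values of these lists are given beside the results they move with.

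Most of the 46 genes stood near the top of the expression range of these nuclei. Their summed RPKM was 6268 and 12254 in Col × Ler replicates 2 and 3, and 5917, 1823 and 9802 in Ler × Col replicates 1, 2 and 3. This is 0.839 and 1.80% of all RPKM in the Col × Ler libraries and 0.938, 0.323 and 1.45% in the Ler × Col libraries. The median gene of the 46 stood at 78.6 and 160.4 RPKM in Col × Ler and at 67.3, 19.7 and 124 RPKM in Ler × Col, which placed it between the 91.6th and the 98.2nd percentile of its library. The 2 crosses overlapped in these sums, because Ler × Col replicate 3 was above Col × Ler replicate 2. Ler × Col replicate 2 was the lowest library for 45 of the 46 genes (97.8%), against 58.9% of all 25579 genes tested; the exception, *LHCB2.3*, was lowest in Col × Ler replicate 2. Col × Ler replicate 3 was the highest library for 41 of the 46 (89.1%), against 20.2% of all genes tested.

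**Figure D1:**
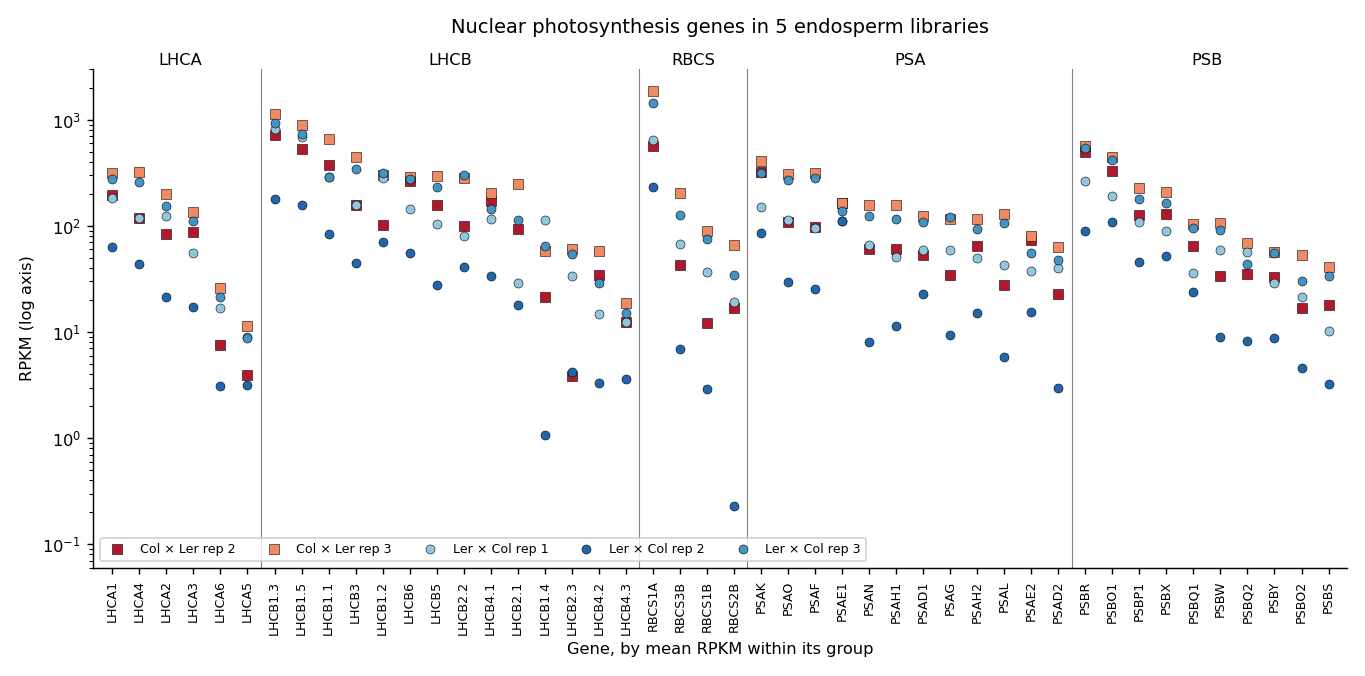
RPKM on a log axis (vertical) of each of the 46 genes (horizontal, ordered by mean RPKM within its group), with squares for the 2 Col × Ler libraries and circles for the 3 Ler × Col libraries. The dark blue circles of Ler × Col replicate 2 lie lowest for 45 genes, down to 0.229 RPKM for RBCS2B, and RBCS1A reaches 1870 RPKM in Col × Ler replicate 3.

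**Figure D2:**
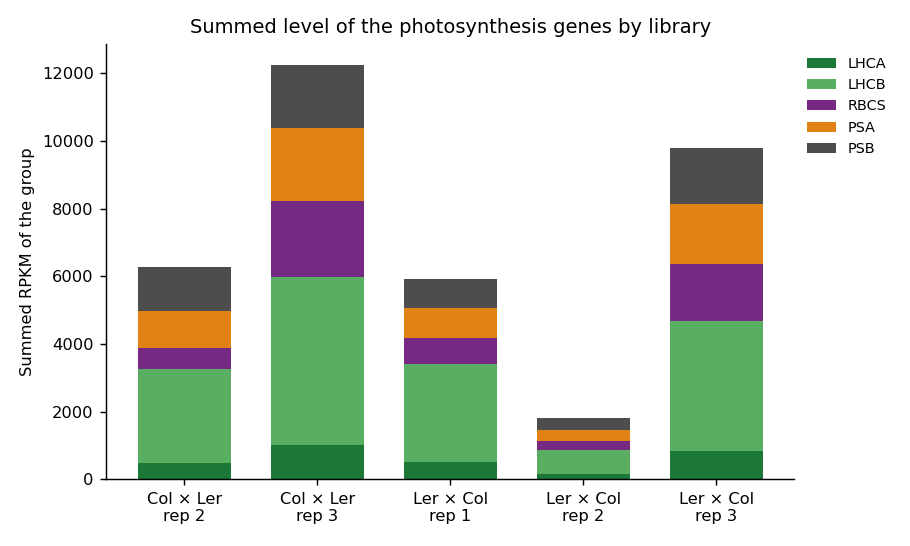
Summed RPKM (vertical, from 0) of the LHCA, LHCB, RBCS, PSA and PSB genes in each library (horizontal), stacked by group. The totals are 6268 and 12254 in Col × Ler and 5917, 1823 and 9802 in Ler × Col, and LHCB is the largest group in every library.

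Among the *LHCA* genes, *LHCA1* (AT3G54890) to *LHCA4* (AT3G47470), whose proteins form the light-harvesting belt at the core, were the highest. *LHCA1* had 195 and 313 RPKM in Col × Ler, against 184, 63.5 and 278 RPKM in Ler × Col. *LHCA4*, its partner in a dimer, had 119 and 321 RPKM in Col × Ler, against 119, 44.1 and 259.5 RPKM in Ler × Col. In both genes the replicate 3 libraries were the 2 highest and the crosses overlapped. The other dimer, of *LHCA2* (AT3G61470) and *LHCA3* (AT1G61520), was lower, at 83.7 to 200.3 RPKM in Col × Ler and 17.1 to 155 RPKM in Ler × Col over both genes. *LHCA5* (AT1G45474) and *LHCA6* (AT1G19150), minor proteins that help attach photosystem I to the NDH complex, were far below them. *LHCA5* had 3.91 and 11.3 RPKM in Col × Ler, against 8.94, 3.14 and 8.80 RPKM in Ler × Col, and *LHCA6* had 7.57 and 25.9 RPKM in Col × Ler, against 16.7, 3.11 and 21.6 RPKM in Ler × Col.

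The *LHCB* genes made up the largest group, at 2758 and 4982 summed RPKM in Col × Ler and 2893, 726 and 3858 summed RPKM in Ler × Col. *LHCB1* and *LHCB2* encode the main subunits of the trimeric antenna complex LHCII, and *LHCB3* (AT5G54270) a further subunit of it. *LHCB1.3* (AT1G29930) was the highest of them, with 728 and 1147 RPKM in Col × Ler, against 824, 179.6 and 939.8 RPKM in Ler × Col. *LHCB1.5* (AT2G34420) followed with 536 and 900.0 RPKM in Col × Ler, against 687, 159 and 731 RPKM in Ler × Col. *LHCB3* had 158 and 450.0 RPKM in Col × Ler, against 157, 44.8 and 347 RPKM in Ler × Col. None of these 3 genes separated the crosses: Ler × Col replicate 3 was above Col × Ler replicate 2 in each. The genes of the monomeric antenna proteins, which link LHCII to the core, were below *LHCB1.3* and *LHCB1.5* in every library. *LHCB4.1* (AT5G01530) had 172 and 206 RPKM in Col × Ler, against 116, 33.5 and 143 RPKM in Ler × Col, with no overlap between the crosses. *LHCB5* (AT4G10340) had 159 and 297 RPKM in Col × Ler, against 104, 27.5 and 232 RPKM in Ler × Col, and *LHCB6* (AT1G15820) had 263 and 290.4 RPKM in Col × Ler, against 146, 55.8 and 275 RPKM in Ler × Col, where the crosses overlapped. *LHCB4.3* (AT2G40100) was lower, with 12.4 and 18.6 RPKM in Col × Ler, against 12.5, 3.59 and 15.1 RPKM in Ler × Col.

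Among the closely related copies of *LHCB1* and *LHCB2*, the balance between neighbours was different in the libraries of the 2 crosses. *LHCB1.1* (AT1G29920), *LHCB1.2* (AT1G29910) and *LHCB1.3* lie side by side on chromosome 1, between 10472280 and 10479114 (TAIR10.1), each with 1 coding exon of 804 bases, and the aligned coding sequences of each pair are 95.6 to 96.4% identical. *LHCB1.1* had 374 and 659.9 RPKM in Col × Ler, against 292, 83.2 and 290.2 RPKM in Ler × Col. *LHCB1.2* had 101 and 301 RPKM in Col × Ler, against 284, 70.8 and 317 RPKM in Ler × Col. The ratio of *LHCB1.1* to *LHCB1.2* was thus 3.69 and 2.19 in Col × Ler, against 1.03, 1.17 and 0.914 in Ler × Col, so that the crosses did not overlap. As a share of the summed RPKM of the 5 *LHCB1* genes, *LHCB1.1* took 21.2 and 21.5% in Col × Ler, against 13.3, 16.9 and 12.4% in Ler × Col. *LHCB1.2* took 5.76 and 9.81% in Col × Ler, against 12.9, 14.4 and 13.5% in Ler × Col. Together the pair made up 27.0 and 31.3% in Col × Ler, against 26.2, 31.2 and 25.9% in Ler × Col, where the crosses overlapped. These ratios were picked out after their values were seen and were not tested.

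The reads of such copies are told apart only by the bases at which they differ. The first 90 coding bases of the 3 neighbours (RefSeq, TAIR10.1, chromosome 1, Col reference), the stretch that varies most among them, show how few these are. Capitals mark bases that differ from *LHCB1.1*, 5 of 90 in *LHCB1.2* and 7 of 90 in *LHCB1.3*.
LHCB1.1: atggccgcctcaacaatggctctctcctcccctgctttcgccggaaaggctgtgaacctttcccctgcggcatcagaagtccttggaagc
LHCB1.2: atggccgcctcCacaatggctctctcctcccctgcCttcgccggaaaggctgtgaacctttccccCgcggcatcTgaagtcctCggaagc
LHCB1.3: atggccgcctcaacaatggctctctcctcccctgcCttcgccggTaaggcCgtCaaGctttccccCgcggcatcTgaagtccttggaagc
Even so, no window of 125 bases, the read length, of the *LHCB1.1*, *LHCB1.2* or *LHCB1.3* transcript occurs in another *LHCB1* transcript of the reference, so every full read on the reference sequence is unique to its gene in this family. Reads of the Ler alleles can differ from it, and the reads themselves were not analysed here.

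In *LHCB2*, a pair of genes lies close together. *LHCB2.1* (AT2G05100; chromosome 2, 1822990 to 1824480) had 94.4 and 248 RPKM in Col × Ler, against 29.0, 18.1 and 115 RPKM in Ler × Col. *LHCB2.2* (AT2G05070; chromosome 2, 1799234 to 1800472) had 99.7 and 286 RPKM in Col × Ler, against 80.5, 41.4 and 305 RPKM in Ler × Col. The ratio of *LHCB2.1* to *LHCB2.2* was 0.947 and 0.867 in Col × Ler, against 0.361, 0.436 and 0.377 in Ler × Col, and again the crosses did not overlap. This ratio, too, was picked out after its values were seen. The share of *LHCB2.1* in the summed *LHCB2* RPKM was 47.7 and 41.7% in Col × Ler, against 20.3, 28.4 and 24.3% in Ler × Col. The 2 copies are 92.9% identical over their aligned coding bases, and 2.61% of the 125-base windows of *LHCB2.1* and 2.55% of those of *LHCB2.2* are shared within the family, so their split is slightly uncertain. The stretch of 90 coding bases where they differ most (bases 4 to 93, capitals for the 13 bases of *LHCB2.2* that differ from *LHCB2.1*) is given below.
LHCB2.1: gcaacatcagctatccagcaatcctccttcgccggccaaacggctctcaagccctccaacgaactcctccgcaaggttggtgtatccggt
LHCB2.2: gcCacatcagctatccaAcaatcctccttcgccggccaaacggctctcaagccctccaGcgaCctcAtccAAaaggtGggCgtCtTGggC
*LHCB2.3* (AT3G27690) on chromosome 3 behaved differently. It had 3.88 and 61.2 RPKM in Col × Ler, against 33.5, 4.16 and 54.2 RPKM in Ler × Col, low in both replicate 2 libraries. *LHCB1.4* (AT2G34430) was likewise low there, with 21.4 and 58.5 RPKM in Col × Ler, against 113, 1.07 and 65.4 RPKM in Ler × Col, and it was the only gene of the 46 to be highest in Ler × Col replicate 1.

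**Figure D3:**
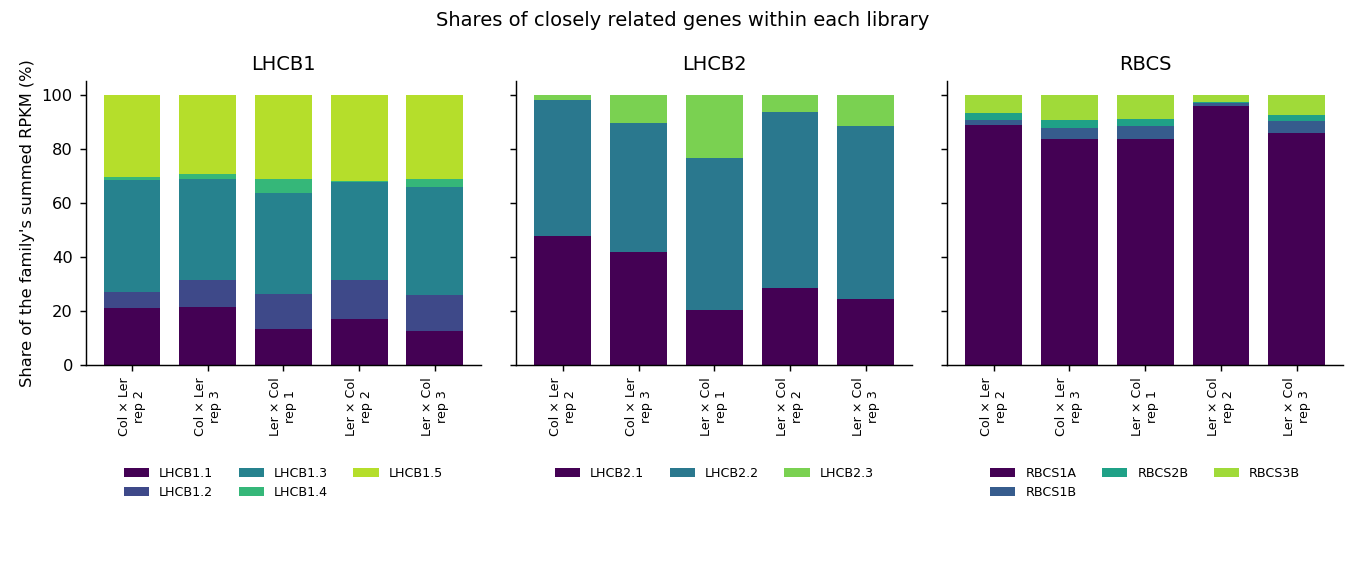
Share in percent (vertical, from 0 to 100) of each gene in the summed RPKM of its family, for the LHCB1, LHCB2 and RBCS genes in each library (horizontal). LHCB1.1 takes 21.2 and 21.5% in Col × Ler and 12.4 to 16.9% in Ler × Col, LHCB2.1 takes 41.7 to 47.7% in Col × Ler and 20.3 to 28.4% in Ler × Col, and RBCS1A takes at least 83.8% in every library.

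Most of the summed *RBCS* RPKM came from a single gene. *RBCS1A* (AT1G67090) had 570.4 and 1870 RPKM in Col × Ler, against 643, 235 and 1428 RPKM in Ler × Col, the highest mean (949 RPKM) of the 46 genes. It took 83.8 to 95.9% of the summed *RBCS* RPKM over the 5 libraries. The B-type genes lie in tandem on chromosome 5, between 15376988 and 15385320. *RBCS3B* (AT5G38410) had 42.6 and 204 RPKM in Col × Ler, against 67.8, 6.90 and 126 RPKM in Ler × Col. *RBCS1B* (AT5G38430) had 12.1 and 89.9 RPKM in Col × Ler, against 36.7, 2.92 and 75.5 RPKM in Ler × Col. *RBCS2B* (AT5G38420) had 16.9 and 66.6 RPKM in Col × Ler, against 19.4, 0.229 and 34.3 RPKM in Ler × Col, where the lowest value corresponds to about 4 reads. The B-type share was smallest in Ler × Col replicate 2, the library with the highest *RBCS1A* share. The B-type coding sequences are 96.7 to 97.3% identical with each other and 90.4 to 90.6% identical with *RBCS1A*. Of the 125-base windows, 5.99% of *RBCS1B* and 10.0% of *RBCS3B* are shared with another *RBCS* gene, and none of *RBCS1A* or *RBCS2B* are. Coding bases 16 to 105, the 90 that vary most over the 4 genes, show the A and B types (capitals differ from *RBCS1A*).
RBCS1A: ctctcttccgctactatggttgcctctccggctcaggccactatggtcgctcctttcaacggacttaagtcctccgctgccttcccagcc
RBCS1B: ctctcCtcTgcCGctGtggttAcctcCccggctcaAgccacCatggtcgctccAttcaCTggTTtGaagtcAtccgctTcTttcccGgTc
RBCS2B: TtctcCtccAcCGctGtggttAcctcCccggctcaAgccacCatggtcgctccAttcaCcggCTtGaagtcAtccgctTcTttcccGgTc
RBCS3B: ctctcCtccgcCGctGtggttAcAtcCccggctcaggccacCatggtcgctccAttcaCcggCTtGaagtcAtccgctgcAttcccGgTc

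The genes for subunits of photosystem I had the narrowest range among themselves within a library (SD of log2(RPKM + 1) over the 12 genes of 1.05 and 0.80 in Col × Ler, and 0.65, 1.41 and 0.85 in Ler × Col). *PSAK* (AT1G30380), at the edge of the complex where antenna proteins bind, was the highest by mean, with 320.2 and 414 RPKM in Col × Ler, against 151, 86.6 and 317 RPKM in Ler × Col; its crosses did not overlap. *PSAO* (AT1G08380), which with *PSAH* and *PSAL* (AT4G12800) forms the side where LHCII docks, had 109 and 312 RPKM in Col × Ler, against 115, 29.9 and 274 RPKM in Ler × Col. *PSAF* (AT1G31330), which binds the electron donor plastocyanin, had 97.3 and 318 RPKM in Col × Ler, against 96.7, 25.6 and 285 RPKM in Ler × Col. In both *PSAO* and *PSAF* the replicate 3 libraries were the 2 highest. *PSAH1* (AT3G16140), *PSAH2* (AT1G52230), *PSAL*, *PSAG* (AT1G55670) and *PSAN* (AT5G64040) had 27.9 to 158 RPKM in Col × Ler and 5.85 to 125 RPKM in Ler × Col.

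The stromal ridge, where ferredoxin docks, is built with the products of *PSAD* and *PSAE*, each encoded by 2 genes. *PSAD1* (AT4G02770) had 52.7 and 124 RPKM in Col × Ler, against 59.1, 22.6 and 109 RPKM in Ler × Col, and *PSAD2* (AT1G03130) had 22.9 and 63.5 RPKM in Col × Ler, against 40.4, 2.98 and 47.3 RPKM in Ler × Col. *PSAE2* (AT2G20260) had 73.4 and 80.1 RPKM in Col × Ler, against 37.6, 15.6 and 55.5 RPKM in Ler × Col. *PSAE1* (AT4G28750) stood apart from the other 45 genes. It had 164 and 163 RPKM in Col × Ler, against 112, 112 and 139 RPKM in Ler × Col, a fold of 1.47 between its highest and lowest library, where the median gene of the 46 had 7.94. It was therefore at 87.7% of the *PSAE* sum in Ler × Col replicate 2, against 67.1 to 74.9% in the other libraries. In neither *PSAE* gene did the crosses overlap. The *PSAE1* value carries a limit, since a gene on the other strand, AT4G28755, spans 436 bases (33.4%) of it and has no value of its own here, and whether the counting used strand is not given. Of the 46 genes, 17 overlap another annotated gene (TAIR10.1), 9 of them over 10% or more of their span: *LHCA5*, *LHCB1.5*, *LHCB2.3*, *LHCB3*, *LHCB6*, *PSAE1*, *PSAG*, *PSAH1* and *PSAH2*. For these, reads of the overlapping gene may be included.

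For photosystem II, the transcripts measured were those for proteins of the oxygen-evolving complex, for small subunits and for *PSBS*. *PSBR* (AT1G79040), a protein needed for stable assembly of that complex, was the highest by mean, with 497 and 572 RPKM in Col × Ler, against 264, 88.9 and 542 RPKM in Ler × Col. *PSBO1* (AT5G66570), the main gene for the manganese-stabilizing protein, had 327 and 445 RPKM in Col × Ler, against 190.4, 110.1 and 421 RPKM in Ler × Col. It took 89.4 to 96.0% of the *PSBO* sum over the 5 libraries, with *PSBO2* (AT3G50820) at 16.7 and 52.8 RPKM in Col × Ler, against 21.2, 4.55 and 30.0 RPKM in Ler × Col. *PSBP1* (AT1G06680), for another extrinsic protein of the complex, averaged 178 ± 70.6 RPKM (SD, n = 2) in Col × Ler and 112 ± 67.0 RPKM (SD, n = 3) in Ler × Col. In these 4 genes the crosses overlapped. *PSBQ1* (AT4G21280) and *PSBQ2* (AT4G05180) changed places: *PSBQ1* had 60.0 to 74.4% of the *PSBQ* sum in 4 libraries and 39.3% in Ler × Col replicate 1. The small membrane subunits *PSBW* (AT2G30570), *PSBX* (AT2G06520) and *PSBY* (AT1G67740) had 33.0 to 209.9 RPKM in Col × Ler and 8.78 to 164 RPKM in Ler × Col. *PSBS* (AT1G44575), which senses a low lumen pH and starts the release of excess light energy as heat, was the lowest by mean, with 18.1 and 40.8 RPKM in Col × Ler, against 10.2, 3.23 and 34.0 RPKM in Ler × Col.

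Between the crosses, the photosynthesis genes were mostly higher in Col × Ler, but none passed the test. Expression was compared with limma on log2(RPKM + 1), and p-values were adjusted over all 25579 genes tested. Of the 46 genes, 0 had an adjusted p under 0.05 (background 0.00782%, 2 of all genes tested), and 3 had an unadjusted p under 0.05, all higher in Col × Ler (6.52%, against 0.899% of all genes tested). The log2 fold change (Col × Ler minus Ler × Col) was positive for 44 of 46 genes, against 54.8% of all genes tested, with a median of 0.89, against 0.10 for all genes tested. Among genes with 1 RPKM or more in every library, a filter that 45 of the 46 pass, the medians were closer, at 0.88 and 0.37. By group the medians were 0.76 for *LHCA*, 0.90 for *LHCB*, 0.99 for *RBCS*, 0.97 for *PSA* and 0.86 for *PSB*. With a library left out they ranged over 0.01 to 1.3 for *LHCA*, 0.17 to 1.55 for *LHCB*, 0.01 to 2.17 for *RBCS*, 0.09 to 1.62 for *PSA* and 0.35 to 1.38 for *PSB*, lowest without Ler × Col replicate 2 in each group but *RBCS*, which was lowest without Col × Ler replicate 3. Standard errors of single genes were 0.74 to 1.13, similar in size to these differences. In 6 of 46 genes (13.0%, against 6.17% of all genes tested) both Col × Ler libraries were above all 3 Ler × Col libraries. These were *LHCB1.1*, *LHCB4.1*, *LHCB4.2* (AT3G08940), *PSAE1*, *PSAE2* and *PSAK*.

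**Figure D4:**
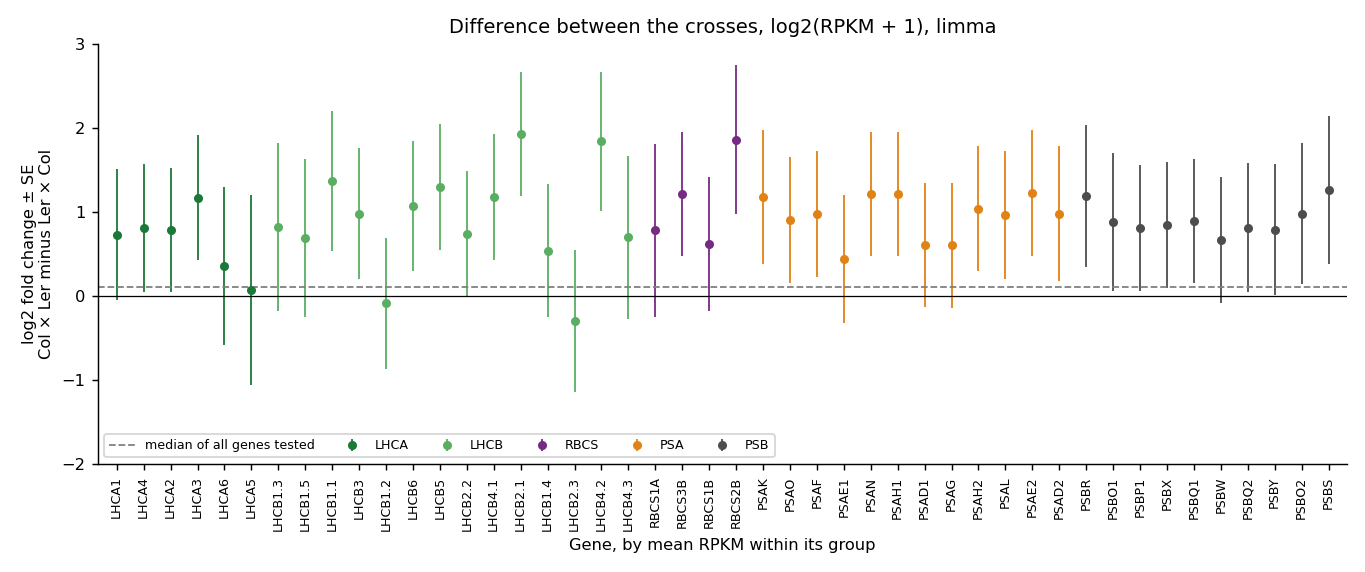
Log2 fold change with its standard error (vertical; Col × Ler minus Ler × Col, limma on log2(RPKM + 1), 2 against 3 libraries) of each gene (horizontal, ordered as by mean RPKM within its group). Points of 44 of the 46 genes lie above 0, and the dashed line is the median of all genes tested, 0.10.

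The largest difference was that of *LHCB2.1*, at 1.93 ± 0.74 (log2 fold change ± SE, adjusted p = 1.000, limma). *LHCB4.2*, a second gene of a monomeric antenna protein, had 34.7 and 57.7 RPKM in Col × Ler, against 14.9, 3.34 and 29.0 RPKM in Ler × Col, and its crosses did not overlap (1.84 ± 0.83, adjusted p = 1.000, limma). *RBCS2B* was the third gene with an unadjusted p under 0.05 (1.86 ± 0.89, adjusted p = 1.000, limma). *LHCB4.2* and *RBCS2B* are named here after their values were seen. *LHCB2.3* had the lowest value, -0.30 ± 0.85 (adjusted p = 1.000, limma). Among the highest genes of the groups, the log2 fold change was 0.73 ± 0.78 for *LHCA1*, 0.82 ± 1.00 for *LHCB1.3*, 0.78 ± 1.03 for *RBCS1A*, 1.18 ± 0.80 for *PSAK* and 1.19 ± 0.85 for *PSBR*, each with an adjusted p of 1.000 (limma). Without Ler × Col replicate 2 these were 0.13 for *LHCA1*, 0.05 for *LHCB1.3*, 0.11 for *RBCS1A*, 0.74 for *PSAK* and 0.49 for *PSBR*, and those of *RBCS2B* and *LHCB4.2* were 0.38 and 1.07. Without Ler × Col replicate 3, *LHCB2.1* passed the test (2.69, adjusted p = 0.00221, limma), the only such case among the 46 genes over the alternatives tried; its adjusted p was 0.939 to 1.000 in the others.

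The size of this difference depended on which libraries were set against each other. Between the replicate 3 libraries, the median gene was 1.24 times as high in Col × Ler as in Ler × Col (1.09 times for all genes tested), and 42 of 46 genes were higher. Between the replicate 2 libraries it was 3.78 times as high (2.00 times for all genes tested), and 45 of 46 genes were higher. Libraries with the same number share no more than that number in the labels. Both pairs had the gene higher in Col × Ler for 41 of 46 genes (89.1%), against 38.2% of all genes tested; the exceptions were *LHCB1.2*, *LHCB1.4*, *LHCB2.2*, *LHCB2.3* and *PSAG*. The median log2 fold change fell to 0.13 without Ler × Col replicate 2, with 33 of 46 genes higher in Col × Ler (median of all genes -0.34), and to 0.39 without Col × Ler replicate 3, with 34 of 46 higher (median of all genes -0.06). It was 1.11 without Ler × Col replicate 1 (median of all genes 0.46), 1.46 without Col × Ler replicate 2 (median of all genes 0.45) and 1.49 without Ler × Col replicate 3 (median of all genes 0.25), with all 46 genes higher in Col × Ler in these 3 cases. With quantile normalization it was 0.45 (median of all genes 0.02), with 42 of 46 higher. The number of genes whose crosses did not overlap was 42 without Col × Ler replicate 2 (23.9% of all genes tested) and 24 without Ler × Col replicate 3 (24.1%). It was 6 (13.0%) without each of the others, below the 14.2% of all genes without Col × Ler replicate 3 and the 15.1% without Ler × Col replicate 1, and above the 6.56% without Ler × Col replicate 2.

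**Figure D5:**
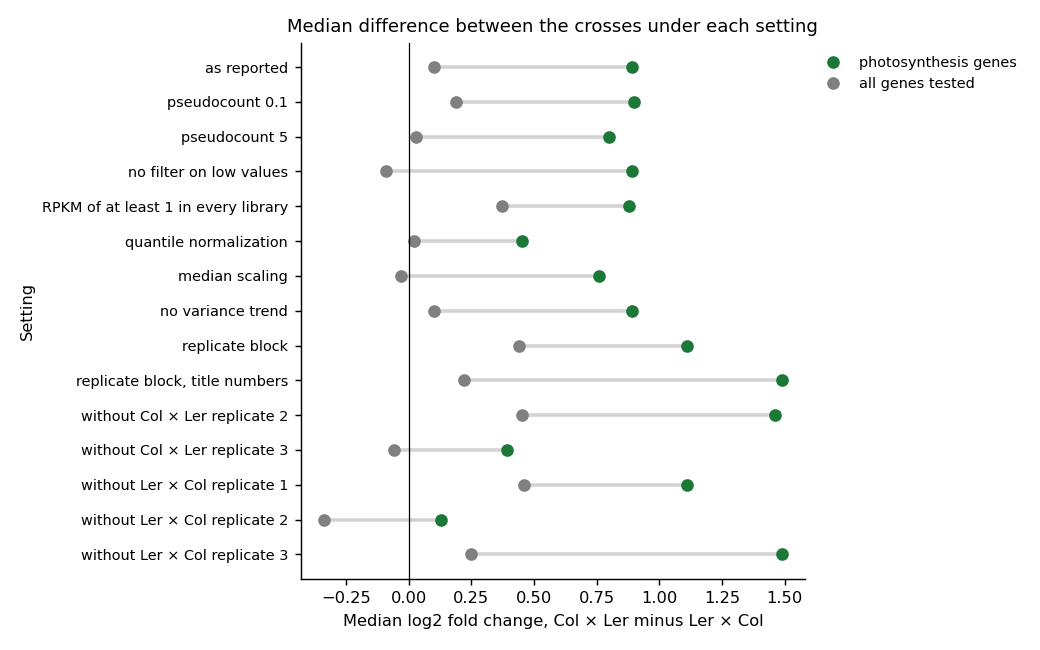
Median log2 fold change (horizontal; Col × Ler minus Ler × Col) of the photosynthesis genes (green) and of all genes tested (grey) as reported and under each alternative setting (vertical). The green point lies to the right of 0 and of the grey point in each, from 0.13 without Ler × Col replicate 2 to 1.49 without Ler × Col replicate 3.

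Within a cross, the replicate 3 library was above the replicate 2 library by a median of 1.23 on the log2 scale in Col × Ler (0.73 for all genes tested) and 2.58 in Ler × Col (1.26 for all genes tested). The libraries thus differed more within Ler × Col than the crosses did. Most genes kept to the same order of libraries: 17 had Col × Ler replicate 3, Ler × Col replicate 3, Col × Ler replicate 2, Ler × Col replicate 1 and Ler × Col replicate 2 from high to low, and 16 had the same order with the third and the fourth exchanged. The median SD of log2(RPKM + 1) over the 5 libraries was 1.16, against 0.95 for all genes tested, and it was 0.40 once the median of the 46 genes was subtracted in each library. Only *LHCA5* and *PSAE1* varied more after this step than before. The rank of the 46 genes by RPKM was alike in all libraries, with Spearman's rho of 0.84 to 0.97 over the 46 genes for each pair of libraries; this is a description across genes, which share gene length and normalization in all libraries.

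Sums of the marker genes of other tissues moved partly with these values. The 11 markers of silique wall and leaf (such as *FIL*, *YAB3*, *SPCH* and *SHP1*) summed to 32.1 and 142 RPKM in Col × Ler, against 172, 10.8 and 71.5 RPKM in Ler × Col, and *FIL*, *YAB3*, *SPCH* and *MUTE* were listed at 0 in both replicate 2 libraries. At least 1 RPKM was reached by 3 and 11 of these 11 genes in Col × Ler, and by 11, 4 and 8 in Ler × Col. Of all genes of the table, 54.6 and 73.0% reached it in Col × Ler, and 92.4, 49.4 and 64.9% in Ler × Col. The counts of each marker list given here follow this share in part. The 10 seed coat markers summed to 118 and 272 RPKM in Col × Ler, against 209, 152 and 215 RPKM in Ler × Col, with 6 and 10 of 10 at 1 RPKM or more in Col × Ler, and 10, 6 and 10 in Ler × Col. *MUM4* made up most of this sum in both replicate 2 libraries (76.2 RPKM in Col × Ler and 119.8 RPKM in Ler × Col). It was highest in Ler × Col replicate 2, whereas *TT1*, the next by mean, was lowest there (15.0 RPKM), as was *BAN* (0.885 RPKM). Most of the other seed coat markers were lowest in Col × Ler replicate 2. *TT16* was listed at 0 in both replicate 2 libraries, and *TT2* and *TTG2* in Col × Ler replicate 2. The 9 embryo markers summed to 178 and 225 RPKM in Col × Ler, against 164, 46.3 and 191 RPKM in Ler × Col, with 5 and 7 of 9 at 1 RPKM or more in Col × Ler, and 9, 4 and 5 in Ler × Col. Here *WOX5*, *PLT2* and *STM* were listed at 0 in Col × Ler replicate 2, and *WOX2*, *PLT2* and *CUC1* in Ler × Col replicate 2. The 10 endosperm markers summed to 664 and 394 RPKM in Col × Ler, against 561, 885 and 463 RPKM in Ler × Col, a sum led by *ZOU* (532 and 189.9 RPKM in Col × Ler, against 386, 777 and 291 RPKM in Ler × Col). Their median, given above, ran the other way and was lowest in Ler × Col replicate 2 and highest in Col × Ler replicate 3, as was *FWA*, an endosperm gene (31.1 and 72.6 RPKM in Col × Ler, against 47.5, 10.7 and 52.5 RPKM in Ler × Col). Ler × Col replicate 2, lowest in the photosynthesis genes, was thus lowest in the sums of silique wall and embryo markers and in the median endosperm marker. The seed coat sum, most of it *MUM4* in that library, was lowest in Col × Ler replicate 2 instead. Ler × Col replicate 1 was highest in silique wall markers and not in the photosynthesis genes. The part of other tissues in the photosynthesis genes' levels was not tested.

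The other genes of the pathway were read from lists chosen by function. None of their genes passed the limma test (background 0.00782%) and 0 had an unadjusted p under 0.05 (background 1.04%). Of the 14 Calvin cycle genes, 14 had a positive log2 fold change (median 0.80, all genes tested 0.10). The highest were *RCA*, the Rubisco activase gene (66.4 and 208 RPKM in Col × Ler, against 104, 32.5 and 147 RPKM in Ler × Col), and *FBA1*, a plastid aldolase gene (107 and 165 RPKM in Col × Ler, against 84.2, 24.3 and 175 RPKM in Ler × Col). All 11 genes of electron transport and ATP synthase were positive too (median 0.79), led by the plastocyanin gene *PETE2* (106 and 152 RPKM in Col × Ler, against 62.8, 35.4 and 123 RPKM in Ler × Col) and the ferredoxin gene *FD2* (53.7 and 180.0 RPKM in Col × Ler, against 63.9, 25.9 and 139 RPKM in Ler × Col). So were all 10 other thylakoid genes (median 0.64), where *PSBTN* was among the 2 highest (123 and 177 RPKM in Col × Ler, against 96.5, 35.9 and 144 RPKM in Ler × Col). In each of the 5 genes named here Ler × Col replicate 2 was the lowest library, as it was for 58.9% of all genes tested. *ELIP2*, a thylakoid gene with the same mean as *PSBTN* (115 RPKM), was lowest in Ler × Col replicate 1 instead (57.8 RPKM, against 84.2 RPKM in replicate 2). Of the 15 chlorophyll synthesis genes, 9 were positive and 6 negative (median 0.61). The highest by mean, *CHLD*, reached its highest value in Ler × Col replicate 2 (247 RPKM), and its other values are given further below. *CRD1*, a cyclase subunit gene and the next by mean, had 127 and 136 RPKM in Col × Ler, against 65.7, 24.0 and 123 RPKM in Ler × Col. The plastid-encoded partners could not be set beside these levels: all 279 plastid and mitochondrial identifiers of the table, *rbcL*, *psaA*, *psaB*, *psbA*, *psbC* and *psbD* included, are listed at 0 in every library.

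Promoters were searched for 2 short motifs known from light-regulated genes, the G-box CACGTG (the same on both strands) and the I-box GATAAG (on both strands, CTTATC on the other), in the 250 bases before each annotated gene start (RefSeq, TAIR10.1). In the promoters of the 46 genes, no match of a G-box overlapped a match of an I-box. A G-box was found in 9 of 46 promoters (19.6%), against 6.49% of the promoters of all 27443 protein-coding nuclear genes, and an I-box in 10 of 46 (21.7%), against 12.3% of all. In 31 of 46 promoters neither was found. Both were found in 4, those of *LHCB6*, *RBCS2B*, *PSAH2* and *PSBQ2*. The promoter of *RBCS2B*, the gene with the widest ratio between libraries (0.229 to 66.6 RPKM, the lowest resting on about 4 reads), held 3 I-boxes that begin 146, 115 and 94 bases before the start and a G-box that begins 123 bases before it. That of *RBCS1A*, the highest gene, held none in this window, and that of *PSAE1*, the gene with the narrowest, held none either. The window is placed by the annotated start, and motifs downstream of it or further upstream were not counted. For *RBCS1A* the annotated transcript has 1268 bases, 543 of them coding, against 935 and 546 for *RBCS2B*. An empty window therefore does not show that a gene lacks these motifs. *PSAH2* had G-boxes 67 and 12 bases and an I-box 84 bases before its start. The promoters of *RBCS2B*, *RBCS1A* and *PSAE1* are shown as the extremes in range and level, and that of *PSAH2* as a second with both motifs. Capitals mark the motifs, and each sequence runs 5′ to 3′ on the strand of its gene; the *PSAE1* window lies within AT4G28755.
RBCS2B promoter, chr5:15382072-15382321, minus strand: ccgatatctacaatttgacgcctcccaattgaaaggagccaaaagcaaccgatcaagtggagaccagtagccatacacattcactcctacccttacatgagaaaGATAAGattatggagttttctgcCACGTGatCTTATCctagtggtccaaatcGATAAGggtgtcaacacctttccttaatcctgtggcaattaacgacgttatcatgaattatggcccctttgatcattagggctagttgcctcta
RBCS1A promoter, chr1:25049668-25049917, minus strand: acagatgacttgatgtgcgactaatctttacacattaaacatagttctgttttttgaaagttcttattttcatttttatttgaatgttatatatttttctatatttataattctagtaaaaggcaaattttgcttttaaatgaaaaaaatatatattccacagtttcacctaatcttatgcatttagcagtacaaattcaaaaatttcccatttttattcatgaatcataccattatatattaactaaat
PSAE1 promoter, chr4:14204062-14204311, minus strand: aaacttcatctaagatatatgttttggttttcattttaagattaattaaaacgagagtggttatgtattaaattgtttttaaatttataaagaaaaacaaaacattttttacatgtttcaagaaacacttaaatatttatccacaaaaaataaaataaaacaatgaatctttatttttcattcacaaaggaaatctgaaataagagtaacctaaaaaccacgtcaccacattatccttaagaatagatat
PSAH2 promoter, chr1:19454548-19454797, plus strand: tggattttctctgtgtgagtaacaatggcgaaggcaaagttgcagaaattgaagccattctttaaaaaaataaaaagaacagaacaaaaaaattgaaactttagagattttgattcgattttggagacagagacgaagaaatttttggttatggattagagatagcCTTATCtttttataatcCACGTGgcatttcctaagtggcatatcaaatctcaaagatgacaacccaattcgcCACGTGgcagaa
A match is a description of letters and was not tested for activity.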

How the data were processed

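RNA-seq of 5 libraries (Col × Ler, n = 2; Ler × Col, n = 3) measured total expression. The values were deposited as RPKM, in which the authors divided the reads of a gene by its length and by library depth, with 1 column per library. The submitters' processing notes name TopHat2 2.1 and TAIR10; the counting and annotation behind the RPKM are not given in the sources used here, nor whether strand was used. Each column was assigned to a sample by the sample descriptions (0 columns were left unassigned), which number the Col × Ler libraries 2 and 3, whereas the titles number them differently. The labels call the libraries biological replicates and do not say that same-numbered libraries share a day or batch. Since RPKM values keep no counts, depth was recovered from tRNA genes with under 20 reads; 95.0 to 98.0% of their values came out as whole reads within 0.05, over 40 to 326 tRNA genes per library. Because it rests on these steps and on TAIR10.1 exon lengths, it serves as a relative measure only.

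Genes that reached 1 RPKM in 2 or more libraries were tested with limma (version 3.58.1, under R version 4.3.3) on log2(RPKM + 1) values, on which changes of low genes appear too small. The prior variance followed the mean, and p-values were adjusted by the Benjamini-Hochberg method. The fit was tested on simulated data, with a common spread for all genes and shifts larger than the median difference reported here. It therefore does not show how often a difference of that size would be called. Fold changes are printed for the highest gene of each group by mean RPKM and for the highest and the lowest log2 fold change; other genes are marked where named. The 46 genes, the lists and the tests were chosen with earlier results of these data known. Alternatives were pseudocounts of 0.1 and 5, no filter, a filter of 1 RPKM in all libraries, quantile normalization, median scaling, no variance trend, a replicate block by either numbering, and leaving out each library. Names, coordinates and sequences come from RefSeq (TAIR10.1), which matched 32835 of 33602 identifiers; the table itself holds no coordinates. Identities were computed with Biopython 1.88 and tables and plots made in Python 3.11.15 with pandas 2.3.3 and matplotlib 3.10.9.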

Additional observations from a re-analysis of the deposited data

How the results depend on the processing

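The median log2 fold change of the photosynthesis genes stayed positive under all 14 alternatives, between 0.13 and 1.49. These are not 14 separate checks. Dropping the filter or the variance trend cannot change the fold change of these genes (median 0.89 in both). Each replicate block gives no weight to a library alone in its block. The blocks therefore repeat the medians without Ler × Col replicate 1 (1.11) and without Ler × Col replicate 3 (1.49). The count of all genes called was 2 as reported, 7 with a pseudocount of 0.1, 6 with a pseudocount of 5 and 6 with the filter of 1 RPKM in all libraries. It was 0 with no filter, with quantile normalization, with median scaling and with no variance trend (limma in each), and 0 to 86 when each library was left out. Of the photosynthesis genes, 0 were called as reported and 0 to 1 with a library left out. With no overlap between the crosses they numbered 6 as reported and 6 to 42 with a library left out (13.0 to 91.3%, against 6.56 to 24.1% of all genes tested, and below all genes in 2 of the 5 cases), an alternative added after the data were seen. With the replicate block 86 of all genes and 0 photosynthesis genes were called and their median was 1.11; over all genes tested, the difference of replicates 3 and 2 correlated between the crosses at r = 0.29, but the labels give no shared day or batch and only 2 numbers are shared, so no pairing was assumed. The block by title numbers gave a median of 1.49. Median scaling moved the median of all genes tested to -0.03, where it was 0.10 as reported, and that of the photosynthesis genes to 0.76. An unadjusted p under 0.05 (limma), higher in Col × Ler, was reached by 3 photosynthesis genes as reported. It was reached by 34 without Ler × Col replicate 3 and by 17 with the block by title numbers (6.87% and 1.82% of all genes tested). The count fell to 1 without Ler × Col replicate 1 (0.803% of all genes tested). It was 0 with no filter and 0 with no variance trend (0.390% and 0.457% of all genes tested). *LHCB2.3* (-0.30 as reported) turned to 0.05 with the replicate block, to 0.38 with the block by title numbers, and ranged over -2.14 to 1.54 with a library left out (1.54 without Col × Ler replicate 2). *RBCS1A* (0.78 as reported) ranged over -0.07 to 1.64 with a library left out, and was -0.07 without Col × Ler replicate 3. The cause was not tested. With quantile normalization *LHCB1.4* and *PSAE1*, and with median scaling *LHCA5*, were also lower in Col × Ler. Low genes rest on few reads, about 4 for *RBCS2B* in Ler × Col replicate 2.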

Other observations

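Some genes of the wider pathway ran against the 46. *CHLD*, for a subunit of magnesium chelatase, the first enzyme particular to chlorophyll synthesis, was the highest gene of its list, with 183 and 135 RPKM in Col × Ler, against 165, 247 and 131 RPKM in Ler × Col. It was highest in the replicate 2 libraries. Of these, Ler × Col replicate 2 was the lowest library for 45 of the 46 photosynthesis genes. Col × Ler replicate 2 was not low in them, with a median of 78.6 RPKM, against 67.3 RPKM in Ler × Col replicate 1. *CHLH* and *CHLI1*, for the other subunits of the same enzyme, had 19.4 and 40.8 RPKM and 20.2 and 40.3 RPKM in Col × Ler, against 14.5, 7.62 and 26.2 RPKM and 15.3, 6.15 and 39.0 RPKM in Ler × Col. These 2 genes were chosen after their values were seen. *ELIP2*, an early light-induced protein of the antenna family, had 164 and 103 RPKM in Col × Ler, against 57.8, 84.2 and 166 RPKM in Ler × Col, and was not lowest in Ler × Col replicate 2.

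Of the 15 transcriptional and light regulators, 14 were tested and 8 had a positive log2 fold change. None passed the limma test and 0 had an unadjusted p under 0.05, with a median of 0.10, the same as all genes tested. *SIG6*, a plastid sigma factor gene, had 31.4 and 38.6 RPKM in Col × Ler, against 19.9, 16.7 and 41.0 RPKM in Ler × Col. *SIG5*, a sigma factor gene known to respond to light and stress, had 40.3 and 12.0 RPKM in Col × Ler, against 13.8, 52.7 and 12.9 RPKM in Ler × Col, highest in both replicate 2 libraries. *GLK1*, *GNC* and *GNL*, for transcription factors that promote chloroplast development, were listed at 0 in both replicate 2 libraries. They are 3 of the 15 regulators, where 12393 and 10800 of all 33602 genes were listed at 0 in replicate 2 of Col × Ler and of Ler × Col. *GLK1*, named after its values were seen, had 0 and 1.03 RPKM in Col × Ler, against 20.6, 0 and 1.80 RPKM in Ler × Col. *GLK2*, also named after its values were seen, was not at 0 in replicate 2 (1.02 RPKM in Col × Ler and 0.140 RPKM in Ler × Col).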
